A study of Mus musculus with 6 samples.

Results

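Polycomb occupancy of the 4 mouse Hox clusters was read from the peak lists of a ChIP-seq study (sequencing of DNA recovered with an antibody to a chromatin protein). The cells were wild-type, untreated E14Tg2A embryonic stem cells, an established line of the 129/Ola strain grown without feeder cells in serum with leukemia inhibitory factor. The clusters were defined by fixed mm9 windows rather than by gene models: Hoxa on chromosome 6 from 52080000 to 52280000 (200 kb), Hoxb on chromosome 11 from 96030000 to 96250000 (220 kb), Hoxc on chromosome 15 from 102740000 to 102880000 (140 kb) and Hoxd on chromosome 2 from 74480000 to 74620000 (140 kb). A peak belonged to a window when it overlapped it by 1 bp or more, which selected 371 of the 24662 peaks of the 4 lists: 120 of 6982 Ring1B peaks, 143 of 8054 Suz12 peaks, 88 of 2754 Cbx7 peaks and 20 of 6872 RYBP peaks. Each target had 1 library, the Suz12 library and 1 IgG library having first been submitted under other records, and the 2 IgG libraries were not used here. The lists hold positions only. Peak height and read depth are therefore unknown, and differences between targets or clusters could not be set against the spread of replicates.

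Hox genes encode homeodomain transcription factors that give body regions their identity along the head-to-tail axis, and their order within a cluster follows the order in which they are expressed. In embryonic stem cells the clusters are textbook Polycomb targets and are largely silent. Ring1B is the ubiquitin ligase of Polycomb repressive complex 1 (PRC1), and Suz12 is a core subunit of PRC2, which trimethylates histone H3 on lysine 27. Cbx7 is the subunit by which canonical PRC1 binds that mark, while RYBP belongs to variant PRC1 complexes that lack Cbx proteins. CpG-rich DNA is known as a site of Polycomb recruitment in mammals.

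The windows stand for 38 Hox genes: 10 each of Hoxa and Hoxb and 9 each of Hoxc and Hoxd. In the RefSeq annotation of GRCm38, coordinates rise from Hoxa2 to Hoxa13 on chromosome 6, from Hoxb13 through Hoxb9 to Hoxb1 on chromosome 11, from Hoxc13 to Hoxc4 on chromosome 15 and from Hoxd13 to Hoxd1 on chromosome 2. No mm9 annotation was used here, so the order names the content of each cluster and no peak was assigned to a gene.

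RefSeq promoter sequences (GRCm38.p6) were found for 22 of the 38 genes, with 24 promoters because Hoxa10 and Hoxd11 have 2 start sites each. The genes not matched were Hoxa4, Hoxb2, Hoxb3, Hoxb5, Hoxb6, Hoxb7, Hoxb9, Hoxb13, Hoxc5, Hoxc6, Hoxc8, Hoxc9, Hoxc10, Hoxc11, Hoxc12 and Hoxc13. In the 250 bases upstream of the start site, the Hox promoters held a median of 12.5 CG dinucleotides (range 2 to 35), compared with a median of 6 over all 32841 RefSeq promoters. Their median GC content was 58.6% and that of all promoters 52.4%. Hoxb had 3 matched genes and Hoxc 1, compared with 9 each in Hoxa and Hoxd. The matched promoter richest in CG of each cluster and the poorest of the 24 (the first Hoxd11 start site) display the range of counts. They are printed 5′ to 3′ in gene orientation, with each CG, which reads the same on both strands, in capitals. Positions in this paragraph are of GRCm38.p6 and cannot be set against the mm9 peaks.
Hoxa13, chr6:52260881-52261130, minus strand: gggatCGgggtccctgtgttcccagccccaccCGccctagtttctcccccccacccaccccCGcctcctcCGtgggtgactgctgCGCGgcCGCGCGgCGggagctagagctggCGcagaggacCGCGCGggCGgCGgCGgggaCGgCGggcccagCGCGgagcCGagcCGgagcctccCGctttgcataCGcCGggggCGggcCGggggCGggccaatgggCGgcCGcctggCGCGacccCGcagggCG
Hoxb4, chr11:96318017-96318266, plus strand: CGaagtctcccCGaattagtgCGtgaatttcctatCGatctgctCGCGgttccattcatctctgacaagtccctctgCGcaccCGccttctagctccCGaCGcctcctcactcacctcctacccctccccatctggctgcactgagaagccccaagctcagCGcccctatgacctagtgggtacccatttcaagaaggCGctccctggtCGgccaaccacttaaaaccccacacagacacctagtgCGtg
Hoxc4, chr15:103034145-103034394, plus strand: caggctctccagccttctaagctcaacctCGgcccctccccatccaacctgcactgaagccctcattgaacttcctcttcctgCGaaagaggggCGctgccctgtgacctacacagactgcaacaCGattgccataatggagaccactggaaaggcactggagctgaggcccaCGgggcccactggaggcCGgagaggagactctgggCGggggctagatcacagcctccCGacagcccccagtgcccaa
Hoxd13, chr2:74667975-74668224, plus strand: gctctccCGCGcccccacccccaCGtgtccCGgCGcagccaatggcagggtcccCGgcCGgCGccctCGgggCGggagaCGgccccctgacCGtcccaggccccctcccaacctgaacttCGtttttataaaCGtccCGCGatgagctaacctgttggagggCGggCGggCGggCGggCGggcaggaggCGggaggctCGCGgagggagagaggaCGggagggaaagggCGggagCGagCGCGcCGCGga
Hoxd11, chr2:74679308-74679557, plus strand: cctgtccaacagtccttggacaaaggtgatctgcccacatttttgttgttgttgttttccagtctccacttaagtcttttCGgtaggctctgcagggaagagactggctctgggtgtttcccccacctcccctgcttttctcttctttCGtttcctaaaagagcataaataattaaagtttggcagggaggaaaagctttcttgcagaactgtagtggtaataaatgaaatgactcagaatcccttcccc

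The Hoxa13 promoter held 35 CG dinucleotides, a number reached by 2.97% of all promoters, and the Hoxd13 promoter held 31, reached by 5.19%. Both genes lie at the end of their cluster that is active last in the embryo. High counts were not limited to that end, since Hoxd1 at the opposite end held 24 and Hoxa5 held 28. Hoxd12, next to Hoxd13, held 10. Hoxb13 and Hoxc13 had no matched promoter. Hoxb4 had 14 (29.4% of all promoters had as many) and Hoxc4 had 8 (43.0%). The first Hoxd11 start site had 2, while the second had 20. CG density thus varied widely within a cluster, and the Hox promoters were not all CpG-rich by this count.

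Ring1B and Suz12 each covered close to 50% of the 4 Hox windows, Cbx7 covered less and RYBP covered little. Ring1B peaks covered 51.7% of the Hoxa window, 43.2% of Hoxb, 58.5% of Hoxc and 52.3% of Hoxd. Suz12 peaks covered 49.3%, 44.4%, 57.2% and 51.8% in the same order. The shares of Ring1B and Suz12 differed by less than 3 percentage points in every window. Cbx7 covered 38.2% of Hoxa, 24.6% of Hoxb, 39.05% of Hoxc and 40.1% of Hoxd, so Hoxb had the lowest share for these 3 targets over the windows as drawn. With the Hoxb window started at the end of its longest Ring1B gap, Ring1B covered 57.7% and Suz12 58.8% of it, above Hoxa and Hoxd, while Cbx7 at 33.95% remained the lowest. RYBP covered 9.04% of Hoxa, 1.85% of Hoxb, 1.96% of Hoxc and 2.41% of Hoxd, and here Hoxa stood above the other 3. Over all 4 windows the shares were 50.5% for Ring1B, 49.8% for Suz12, 34.5% for Cbx7 and 4.04% for RYBP. Over the whole genome, taken up to the last peak of each chromosome, they were 0.535%, 0.59%, 0.239% and 0.349%.

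**Figure D1:**
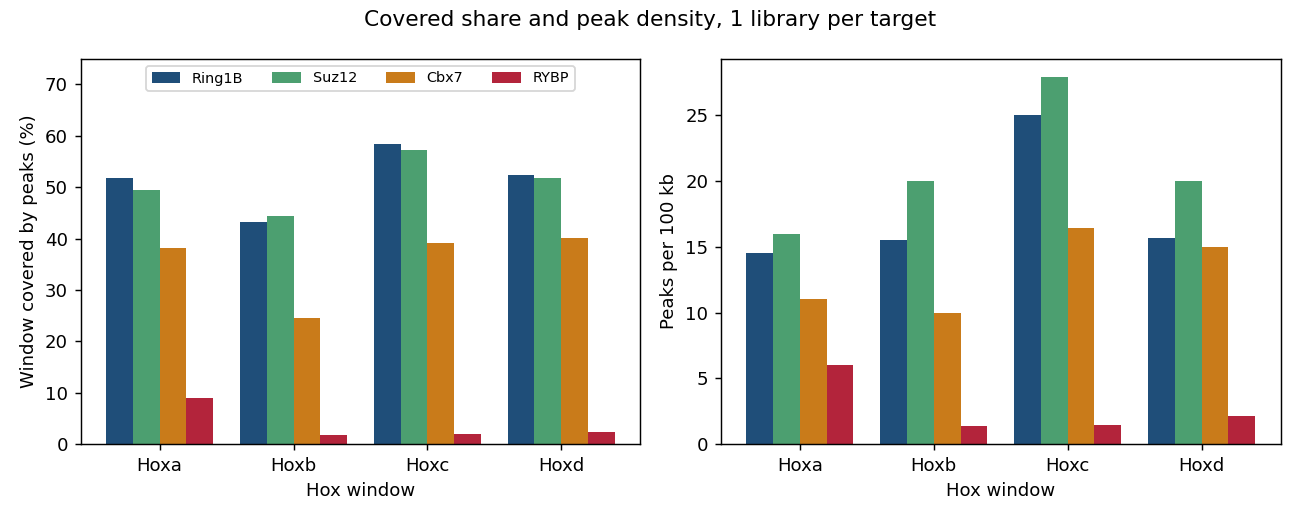
Left, share of each Hox window covered by peaks of Ring1B, Suz12, Cbx7 and RYBP, in percent; right, peaks per 100 kb. Each bar is 1 library, without replicates. RYBP covers 9.04% of Hoxa and between 1.85% and 2.41% of the other windows.

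The clusters differed in how finely their covered sequence was divided into peaks. Ring1B had 29 peaks in Hoxa, 34 in Hoxb, 35 in Hoxc and 22 in Hoxd, which is 14.5, 15.5, 25 and 15.7 peaks per 100 kb. Hoxc was thus the most finely divided cluster. The median Ring1B peak there was 1564 bp wide, compared with 1729 bp in Hoxb, 3000 bp in Hoxa and 3090.5 bp in Hoxd. Suz12 was divided into more peaks than Ring1B in every window, with 32, 44, 39 and 28. Cbx7 had 22 peaks in Hoxa, 22 in Hoxb, 23 in Hoxc and 21 in Hoxd. RYBP had 12 peaks in Hoxa, 3 in Hoxb, 2 in Hoxc and 3 in Hoxd. The median width of Ring1B peaks over the 4 windows was 2225 bp, compared with 1639 bp for the whole Ring1B list, while RYBP peaks had nearly the same median inside the windows (1209.5 bp) as in the whole list (1219 bp).

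Neighbouring peaks lay close together within the clusters. The median gap between consecutive Ring1B peaks was 621 bp in Hoxa, 759 bp in Hoxb, 518.5 bp in Hoxc and 451 bp in Hoxd, and 134 kb over the whole list. Of the 116 Ring1B gaps in the windows, 70 (60.3%) were shorter than 1 kb, compared with 10.0% of all Ring1B gaps. When Ring1B peaks within 1 kb were joined, the 120 peaks formed 50 domains with a median gap of 3123 bp. Of these, 12 (24.0%) spanned 10 kb or more, compared with 99 of the 6284 domains of the genome (1.58%).

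The widest joined Ring1B domain of each cluster differed in its RYBP content. In Hoxa it ran from 52149639 to 52204596 on chromosome 6 (55.0 kb, 12 peaks), with RYBP on 19.4% and Cbx7 on 72.04%. In Hoxb it ran from 96136301 to 96168325 on chromosome 11 (32.0 kb, 6 peaks), with Cbx7 on 62.5% and no RYBP. In Hoxc it ran from 102789800 to 102818443 on chromosome 15 (28.6 kb, 11 peaks), with RYBP on 6.42%. In Hoxd it was the shortest, from 74524360 to 74539365 on chromosome 2 (15.0 kb, 6 peaks), with Cbx7 on 83.7% and no RYBP.

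**Figure D2:**
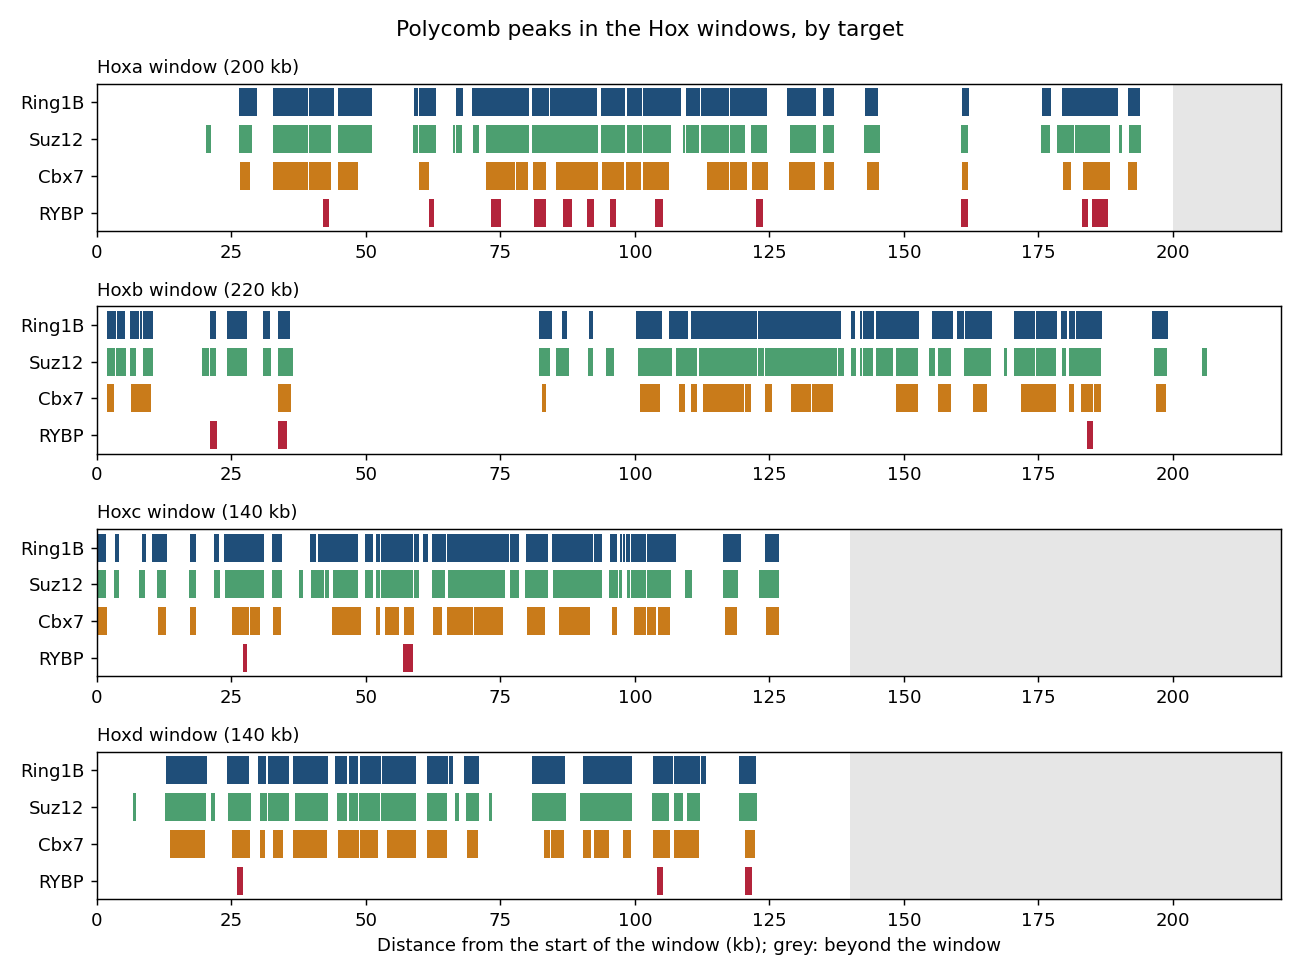
Position of every peak in the 4 Hox windows, as distance from the window start in kb, with 1 row per target. Ring1B and Suz12 fill nearly the same stretches, Cbx7 covers part of them (67.5% of the Ring1B sequence), RYBP appears as 12 short peaks in Hoxa and as 2 or 3 in each other window, and Hoxb holds a 46.2-kb gap without Ring1B.

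Each cluster also had a stretch free of Ring1B. By far the longest lay in Hoxb, from 96065914 to 96112097 on chromosome 11, a gap of 46.2 kb or 21.0% of the window; the second longest there was 10.7 kb. This gap left 9 Ring1B peaks on its lower-coordinate side and 25 on the other. In Hoxa the longest gap was 15.5 kb (52225246 to 52240756 on chromosome 6), in Hoxd 9.92 kb (74550956 to 74560877 on chromosome 2) and in Hoxc 8.69 kb (102847675 to 102856363 on chromosome 15). The longest Suz12 gaps lay in nearly the same places in Hoxa (15.2 kb) and Hoxb (45.9 kb), and those of Hoxc (5.82 kb) and Hoxd (7.38 kb) were shorter, since Suz12 peaks reached further into the Ring1B gap.

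The outermost Ring1B peaks placed the occupied span within each window. The span measured 167.4 kb in Hoxa, from a first peak at 52106382 to 52109774 to a last at 52271650 to 52273809. It measured 197.2 kb in Hoxb, from 96031856 to 96033536 to a last peak at 96226200 to 96229009. In Hoxc it measured 126.8 kb, from 102739916 to 102741776 to a last peak at 102864148 to 102866696, and its first peak reached over the window edge. In Hoxd it measured 109.8 kb, from 74492813 to 74500439 to a last peak at 74599416 to 74602621. All 8 outermost peaks overlapped Cbx7, compared with 65.8% of the Ring1B peaks of the windows and 35.3% of all Ring1B peaks.

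Ring1B and Suz12 marked nearly the same sequence in the clusters. Of the 120 Ring1B peaks, 112 (93.3%, 95% Wilson interval 87.4 to 96.6%) overlapped Suz12, compared with 81.9% of all Ring1B peaks. By bases, 91.2% of the Ring1B sequence lay under Suz12, with a range of 90.2% in Hoxc to 92.4% in Hoxd. Of the 143 Suz12 peaks, 124 (86.7%) overlapped Ring1B, compared with 72.4% of the whole list. Cbx7 lay on 85 of the 143 (59.4%, compared with 31.3%) and RYBP on 17 (11.9%, compared with 25.9%). The low RYBP share was not found in Hoxa, where it was 9 of 32 (28.1%). It was 3 of 44 in Hoxb, 2 of 39 in Hoxc and 3 of 28 in Hoxd. The 8 Ring1B peaks without Suz12 were narrow, at 363 to 1253 bp, and lay between 4 and 604 bp from the nearest Suz12 peak; none lay in Hoxa. The 19 Suz12 peaks without Ring1B had a median width of 735 bp, against 2223.5 bp for the other 124, and lay a median of 754 bp from Ring1B. In 74 cases a Ring1B and a Suz12 peak overlapped each other and no further peak of the other list, and their starts differed by a median of 69.5 bp and their ends by 84 bp. The starts lay within 100 bp of each other in 45 of the 74 and the ends in 43. Hoxd had 8 such pairs, with a median difference of 278.5 bp between starts and 90.5 bp between ends.

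Cbx7 lay inside these stretches. All 88 Cbx7 peaks overlapped Ring1B (95% Wilson interval 95.8 to 100%), compared with 92.1% of the whole list, and 98.8% of the Cbx7 sequence lay under Ring1B. All but 1 overlapped Suz12 (87 of 88, 98.9%, compared with 92.2%); the exception, on chromosome 11 from 96037712 to 96038349 in Hoxb, was 637 bp wide and 306 bp from a Suz12 peak. Conversely 79 of 120 Ring1B peaks (65.8%, 56.97 to 73.7%) carried Cbx7, compared with 35.3% of all Ring1B peaks. The share was 23 of 29 in Hoxa, 17 of 22 in Hoxd, 20 of 35 in Hoxc and 19 of 34 in Hoxb. By bases, Cbx7 covered 75.5% of the Ring1B sequence in Hoxd, 73.3% in Hoxa, 65.8% in Hoxc and 56.5% in Hoxb, and 42.3% outside the clusters. Other windows rich in Ring1B were closer to the clusters than that outside value. In windows of the same length, set at regular steps along the genome, with at least 10% Ring1B cover, Cbx7 length was a median of 62.9% of Ring1B length at 200 kb, 66.7% at 220 kb and 69.5% at 140 kb. The same ratio was 74.0% in Hoxa and 76.6% in Hoxd, above those medians, and 57.0% in Hoxb and 66.8% in Hoxc, below them. The 40 Ring1B peaks with neither Cbx7 nor RYBP were a median of 1048 bp wide (376 to 3747 bp), compared with 2823.5 bp (363 to 12888 bp) for the 62 with Cbx7 without RYBP, so the ranges overlapped.

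RYBP was found on fewer Ring1B peaks of the clusters than of the whole list, and most of those lay in Hoxa. Of the 120 Ring1B peaks, 18 (15.0%, 95% Wilson interval 9.70 to 22.5%) overlapped RYBP, compared with 33.0% of all Ring1B peaks. Hoxa held 10 of the 18, on 29 Ring1B peaks (34.5%, 19.9 to 52.6%), which is close to the share in the whole list. Hoxb had 3 of 34 (8.82%, 3.05 to 22.96%), Hoxc 2 of 35 (5.71%, 1.58 to 18.6%) and Hoxd 3 of 22 (13.6%, 4.75 to 33.3%). Without Hoxa the share was 8.79%. Neighbouring peaks share their chromatin and come from 1 library, so these intervals cover the sampling of peaks only and the difference between clusters was not tested. The peak names of the RYBP list carry the number 5 and those of the other lists 10. What the number means is not stated, and its part in the lower RYBP shares was not tested.

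The share with RYBP was low in Hoxb, Hoxc and Hoxd among wide Ring1B peaks as well as narrow ones. Among Ring1B peaks of the widest quintile of the whole list (2725 bp or more), RYBP was present on 6 of 35 in these 3 clusters (17.1%), on 9 of 16 in Hoxa (56.2%) and on 571 of 1345 outside the clusters (42.5%). In the 4 narrower quintiles RYBP was present on 2 of 56 peaks of Hoxb, Hoxc and Hoxd (3.57%). It was present on 1 of 13 of Hoxa (7.69%), so among narrower peaks the share was low in Hoxa as well. Outside, the share was 31.1% over these quintiles and ran from 20.5% to 39.3%. Cbx7 differed in the opposite direction and was present on 62.5% of the cluster peaks of the middle quintile and on 80.0% of the next, compared with 24.7% and 49.6% outside.

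**Figure D3:**
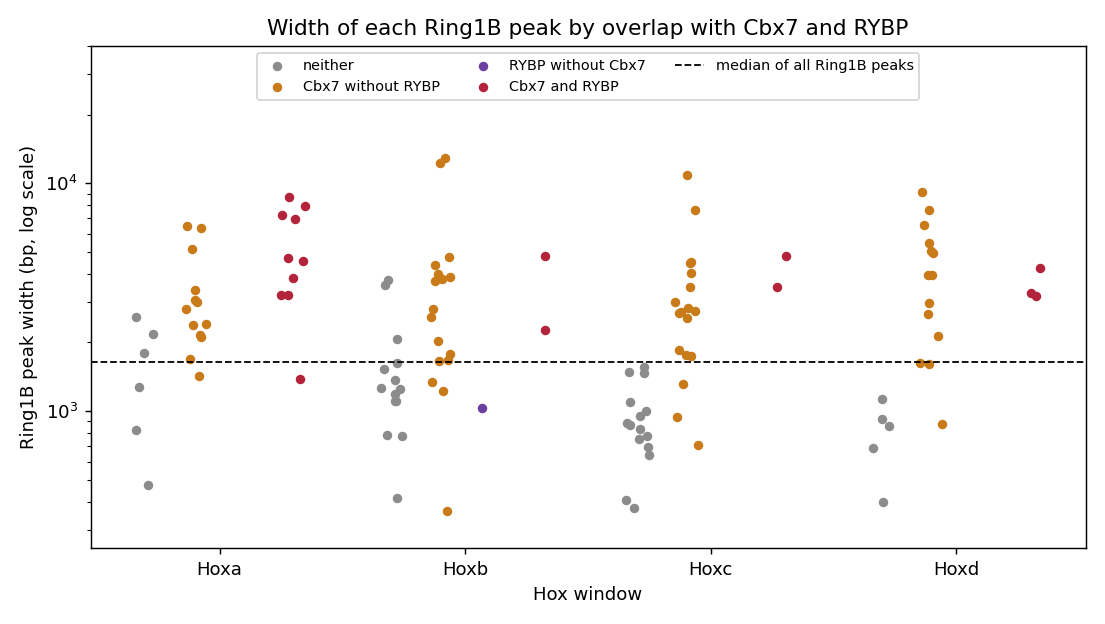
Width of each of the 120 Ring1B peaks in bp on a log axis, by window and by overlap with Cbx7 and RYBP; the dashed line is the median of all Ring1B peaks, 1639 bp. Of the 18 peaks with RYBP, 17 also carried Cbx7, with a median width of 4244 bp, and the exception is a Hoxb peak of 1030 bp.

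Where RYBP peaks did occur in the clusters, they lay on those of the other subunits. All 20 RYBP peaks overlapped both Ring1B and Suz12 (83.9 to 100%), compared with 34.6% and 31.5% of the whole RYBP list. Of the 20, 18 overlapped Cbx7 (90.0%, 69.9 to 97.2%), compared with 12.2% of all RYBP peaks. Ring1B covered 50.5% and Cbx7 34.5% of the windows, so any peak placed in them is likely to overlap these targets. Among Ring1B peaks with RYBP, 17 of 18 in the clusters carried Cbx7, compared with 65.8% of all Ring1B peaks there. These shares are not matched for width. Of the 18 peaks, 15 were in the widest quintile, where 49 of all 51 cluster peaks (96.1%) carried Cbx7. Outside the clusters, 776 of 2286 Ring1B peaks with RYBP carried Cbx7, and so did 34.7% of all Ring1B peaks there. By bases, 99.2% of the RYBP sequence of the clusters lay under Ring1B and 90.7% under Cbx7, while outside the clusters the values were 33.1% and 11.99%. In the opposite direction, 16 of 88 Cbx7 peaks (18.2%) overlapped RYBP, compared with 28.9% of the whole Cbx7 list. Hoxa, with 9 of 22 (40.9%), was above the whole list. The other clusters were below it, with 2 of 22 in Hoxb, 2 of 23 in Hoxc and 3 of 21 in Hoxd. The 1 RYBP-bearing Ring1B peak without Cbx7 was the Hoxb peak from 96051093 to 96052123.

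Cbx7 covered more sequence than RYBP in each cluster, by unequal factors. In Hoxa, Cbx7 peaks covered 76.4 kb and RYBP peaks 18.1 kb, a ratio of 4.23. In Hoxb they covered 54.1 and 4.07 kb (13.3), in Hoxc 54.7 and 2.74 kb (19.9) and in Hoxd 56.1 and 3.37 kb (16.7). Over all sequence outside the clusters the order was opposite, with 6073 kb of Cbx7 and 9183 kb of RYBP, a ratio of 0.661. In other windows with at least 10% Ring1B cover the order was mostly that of the clusters, with more Cbx7 than RYBP in 33 of 36 windows of 200 kb, 20 of 24 of 220 kb and 69 of 75 of 140 kb. Within the sequence covered by Ring1B, RYBP lay on 17.5% in Hoxa, 4.08% in Hoxb, 3.35% in Hoxc and 4.60% in Hoxd, and on 22.1% outside. Hoxa was thus nearer to the outside value than to the other clusters. Against other 200-kb windows with at least 10% Ring1B cover, however, Hoxa was above the median. RYBP length was a median of 9.02% of Ring1B length in them, compared with 17.5% in Hoxa. RYBP cover exceeded that of Hoxa in 2 of the 36. That count is not adjusted for Ring1B, which covered at most 44.4% of any other 200-kb window and 51.7% of Hoxa. At 220 kb the median was 11.3%, compared with 4.28% in Hoxb, and RYBP cover exceeded that of Hoxb in 10 of 24. With each list limited to its 2754 widest peaks, RYBP length as a percentage of Cbx7 length fell from 23.7% to 15.02% in Hoxa, from 7.51% to 2.92% in Hoxb, from 5.02% to 3.37% in Hoxc, from 6.003% to 0% in Hoxd and from 11.7% to 6.17% over all 4 clusters. This limit changes both the number and the width of the peaks kept, since the narrowest left was 1314 bp for RYBP and 183 bp for Cbx7.

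In Hoxa the RYBP peaks ran through much of the cluster, with 6 of the 12 in the stretch from 70 to 110 kb after the window start, where Ring1B covered 92.4% and RYBP 23.3%. These 6 peaks on chromosome 6 ran from 52153312 to 52155068, from 52161184 to 52163552, from 52166652 to 52168230, from 52171187 to 52172357, from 52175367 to 52176420 and from 52183770 to 52185156. All 6 lay wholly within peaks of Ring1B, Suz12 and Cbx7. On the side towards the window start there were 2 further peaks, from 52122077 to 52123239 within Cbx7 and from 52141797 to 52142751, which missed the nearest Cbx7 peak by 37 bp. On the other side a peak from 52202613 to 52203941 also lay within Cbx7. It was followed by 36.8 kb without RYBP and then by an isolated peak from 52240716 to 52241935 (1219 bp), whose Ring1B peak was covered to 85.4% by RYBP and to 83.3% by Cbx7.

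The last 2 RYBP peaks of Hoxa lay side by side, from 52263145 to 52264190 and from 52264852 to 52267911. The second spanned 3059 bp, the widest RYBP peak of the clusters. Both lay in a single Ring1B peak of 7.22 kb (52261084 to 52268305), of which RYBP covered 56.8% and Cbx7 69.8%. This was the third widest Ring1B peak of Hoxa. The widest, 8.71 kb from 52164303 to 52173014, held 2 RYBP peaks on 31.6% of its length, and the second, 7.95 kb from 52152353 to 52160298, held 1 on 22.1%. All 3 of the widest Hoxa peaks thus carried RYBP.

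In Hoxb 2 of the 3 RYBP peaks lay before the long Ring1B gap. They ran from 96051111 to 96052311, which was 10967 bp from the nearest Cbx7 peak, and from 96063741 to 96065321, which lay to 98.9% within Cbx7. The third ran from 96213958 to 96215244 near the other end of the occupied span. Between the second and the third lay 149 kb without RYBP that held 23 whole Ring1B peaks, 32 of Suz12 and 14 of Cbx7. The 2 widest Ring1B peaks of all 4 clusters were in that stretch, 12.9 kb from 96155437 to 96168325 and 12.2 kb from 96140523 to 96152749, with Cbx7 on 61.1% and 78.7% of them and no RYBP. The next widest of Hoxb, 4.81 kb from 96211966 to 96216774, carried RYBP on 26.8%.

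In Hoxc both RYBP peaks lay in the lower-coordinate side of the occupied span, from 102767093 to 102767996 (903 bp) and from 102796866 to 102798706 (1840 bp). Cbx7 covered all of the first and 91.2% of the second. The side with the higher coordinates had Ring1B on 70.9% and Cbx7 on 51.05% of its 63.4 kb and no RYBP peak. The widest Ring1B peaks of Hoxc, 10.9 kb from 102805009 to 102815893 and 7.60 kb from 102781018 to 102788622, had no RYBP either. The next, 4801 bp from 102763611 to 102768412, held the first RYBP peak.

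In Hoxd the RYBP peaks lay towards the ends of the occupied span, 1 from 74506144 to 74507185 and 2 from 74584089 to 74585240 and from 74600529 to 74601707, each at least 99.6% within Cbx7. The 76.9 kb between the first and the second held 15 whole Ring1B peaks and 14 of Cbx7. None of the 3 widest Ring1B peaks of Hoxd carried RYBP: 9.17 kb from 74570296 to 74579470, 7.63 kb from 74492813 to 74500439 and 6.53 kb from 74516417 to 74522942. Cbx7 covered 61.8%, 83.6% and 97.01% of them.

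Bins of 10 kb from the window start gave the profile along each cluster. Ring1B covered at least 50% of the sequence in 10 of 20 bins of Hoxa, 10 of 22 of Hoxb, 8 of 14 of Hoxc and 8 of 14 of Hoxd. Its highest bin reached 99.4% in Hoxa (70 to 80 kb), 98.4% in Hoxb (120 to 130 kb), 90.6% in Hoxc (80 to 90 kb) and 91.7% in Hoxd (90 to 100 kb). Cbx7 was uneven where Ring1B was high. In Hoxb it covered 83.3% of the bin at 110 to 120 kb, 36.2% of the next and 13.7% of that at 140 to 150 kb, while Ring1B covered 94.8%, 98.4% and 82.8% of them. RYBP was absent from 11 of 20 bins in Hoxa, 19 of 22 in Hoxb, 12 of 14 in Hoxc and 11 of 14 in Hoxd, and reached its highest value, 41.0%, at 180 to 190 kb of Hoxa. Cbx7 exceeded RYBP in 78.6% of all bins. RYBP exceeded Cbx7 in 2 bins, 12.2% against 11.5% at 160 to 170 kb of Hoxa and 12% against 0% at 20 to 30 kb of Hoxb, and the remaining bins had neither.

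**Figure D4:**
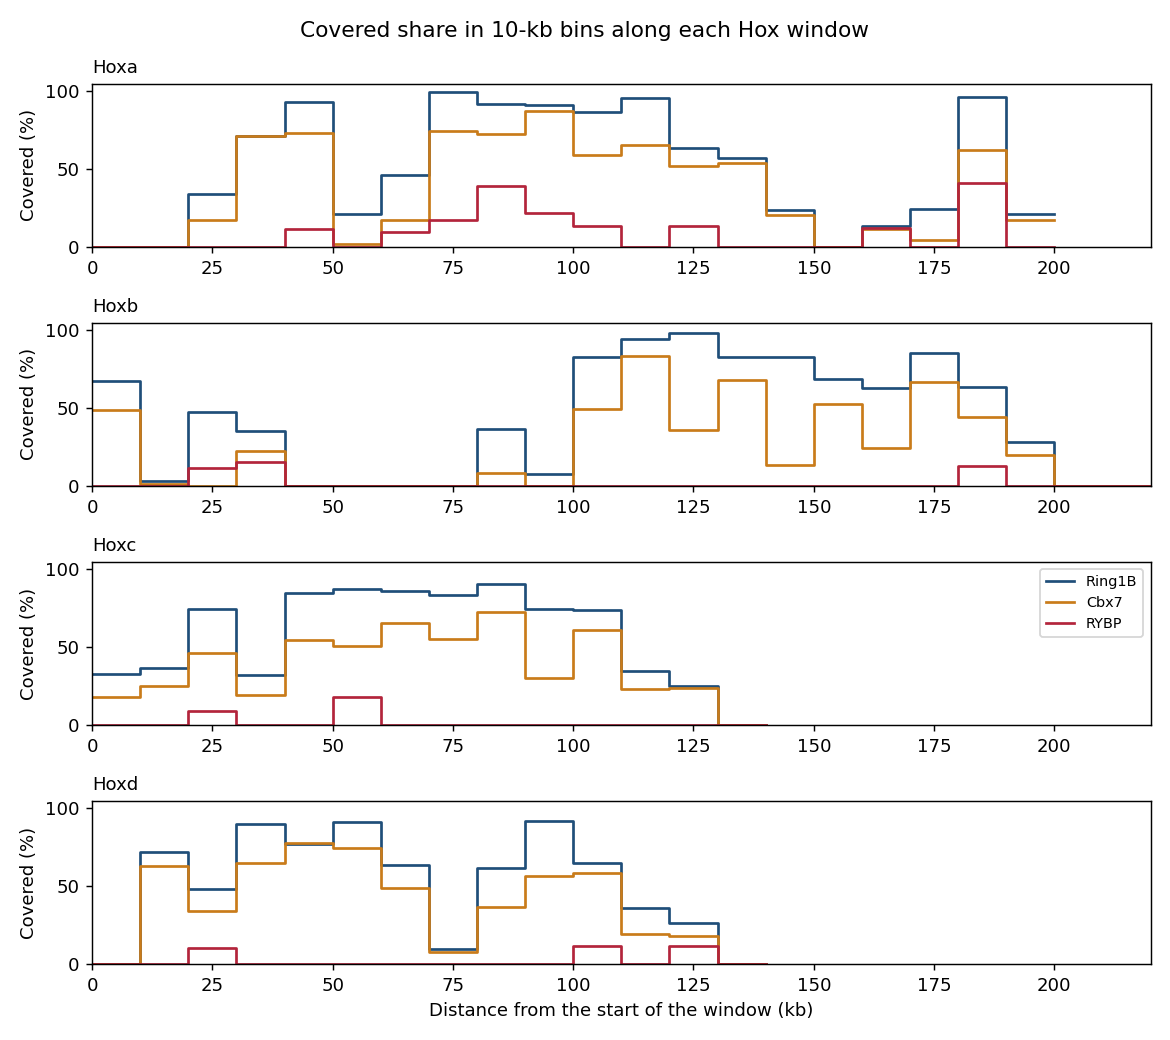
Share of each 10-kb bin covered by Ring1B, Cbx7 and RYBP, in percent, against distance from the start of each Hox window in kb. RYBP stays at or below 41.0% in Hoxa and at or below 18.4% in the other clusters, while Cbx7 reaches 73.0% or more in each.

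For comparison, each chromosome was divided into windows of the length of each Hox window, leaving out those that touched a Hox window. Of 13173 windows of 200 kb none had as much Ring1B as Hoxa; likewise 0 of 11974 windows of 220 kb reached Hoxb and 0 of 18827 windows of 140 kb reached Hoxc. For Hoxd, 2 of 18827 did, on chromosome 8 from 126000000 and on chromosome 6 from 47600000. They contained 2 and 3 Ring1B peaks, the widest of 87.9 and 36.7 kb, whereas Hoxd was covered by 22 peaks of at most 9.17 kb. For RYBP the Hoxb, Hoxc and Hoxd windows were less extreme: 4.70%, 5.01% and 3.53% of the other windows had as much RYBP, compared with 0.0683% (9 windows) for Hoxa. Among the 75 other 140-kb windows with at least 10% Ring1B cover, RYBP covered a median of 1.33% of the window and exceeded its share of Hoxc in 24 and of Hoxd in 20. The length of RYBP in them was a median of 8.35% of that of Ring1B, compared with 3.35% in Hoxc and 4.60% in Hoxd. A 200-kb window on chromosome 6 from 114400000 had the opposite makeup to the Hox windows, with Ring1B on 32.6%, RYBP on 55.4% and no Cbx7. The Hox windows were drawn around the clusters and the others at regular steps, so these ranks describe the lists and are not a test.

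**Figure D5:**
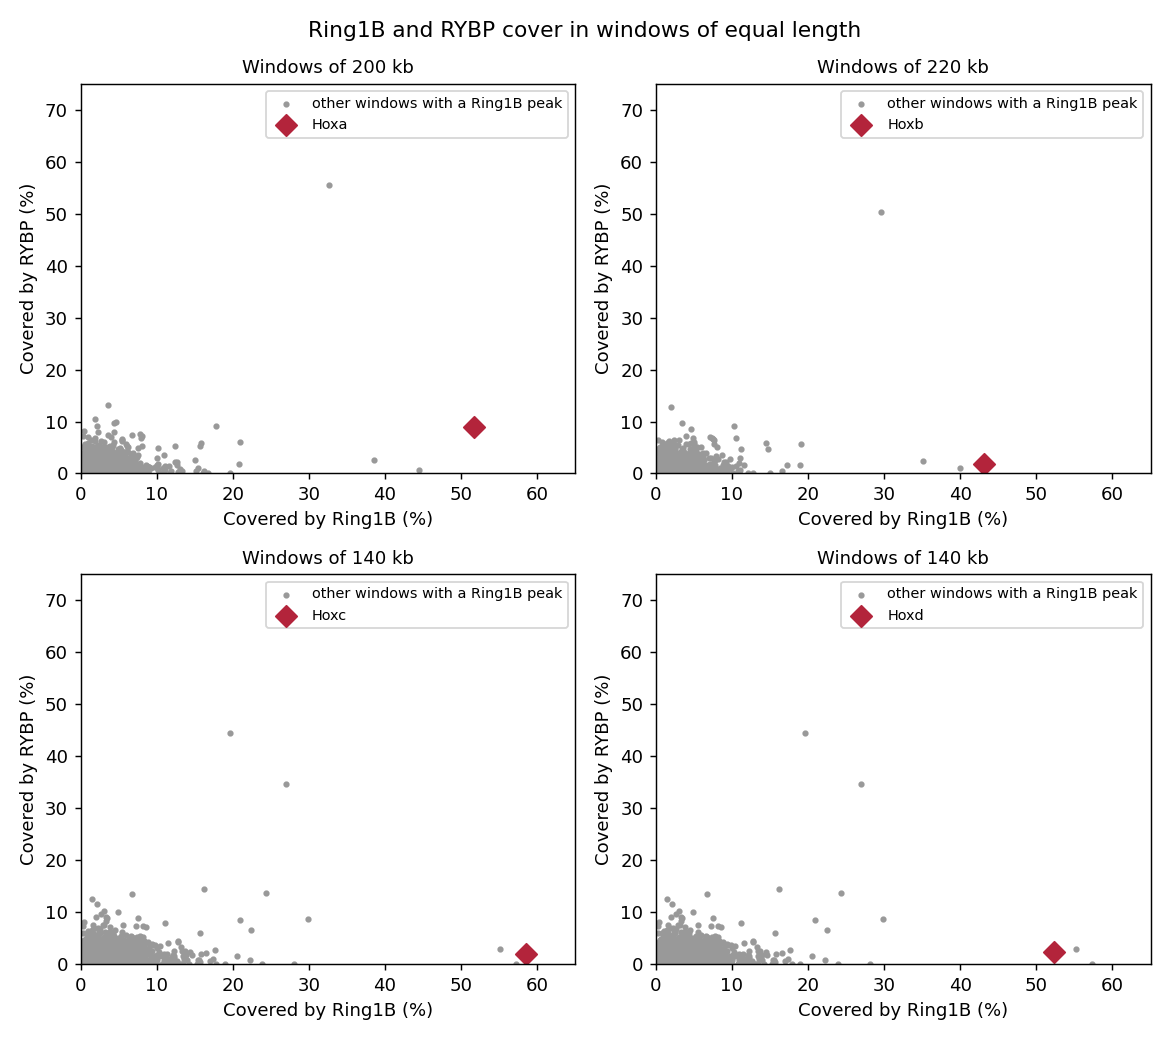
Share of each window covered by Ring1B and by RYBP, in percent, for windows of the length of each Hox window with at least 1 Ring1B peak; the diamond is the Hox window. The Hox windows lie at 43.2% to 58.5% Ring1B, where few others lie, with RYBP at 9.04% in Hoxa and at most 2.41% in the others.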

How the data were processed

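The authors deposited 1 peak list per target for Ring1B, Cbx7, Suz12 and RYBP, whose values are start and end positions in base pairs in mm9, with no score, fold or p. The submitters' processing notes name mm9, MACS 1.3.7.1 and Bowtie 0.12.7, without their roles. Thresholds, duplicate handling and the control used are not stated in the sources, nor is it stated whether positions count from 0 or 1. Positions are printed as listed, and widths are end minus start.

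Samples were grouped by the target in their description. The members, lists and rules were chosen with earlier results of these data known. Peaks were clipped to the windows for covered shares. Overlap meant at least 1 bp. The intervals printed are 95% Wilson intervals over peaks and cover sampling of peaks only. Those used to compare settings are described with that comparison. No test was made, because each target has 1 library and peaks of a cluster are not replicates. Quintiles are of the width of all Ring1B peaks. The peaks named are all RYBP peaks, the 3 widest and the outermost Ring1B peaks and the largest Ring1B gap of each window. The other peaks, stretches and windows named were chosen after their values were seen. CG dinucleotides were counted in RefSeq promoters of GRCm38.p6. The functions were tested on simulated data. Python 3.11.15, numpy 2.4.6, pandas 2.3.3, SciPy 1.17.1 and matplotlib 3.10.9 were used.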

Additional observations from a re-analysis of the deposited data

How the results depend on the processing

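No paired analysis was possible because each target had 1 library, and no replicate could be left out. Joining peaks within 1 kb lowered the Ring1B peaks of the clusters to 50 and the Suz12 peaks to 68 and raised the median Ring1B gap to 3123 bp. Taking the occupied Ring1B span as the window gave shares of 58.8% for Ring1B, 57.6% for Suz12 and 40.2% for Cbx7. Windows narrowed by 20 kb on each side gave 58.4%, 57.3% and 39.6%, and windows widened by 20 kb gave 41.6%, 41.3% and 28.5%. With Hoxb started at the end of its 46.2-kb gap, a choice made after seeing the data, Ring1B covered 54.7% and Suz12 53.8% of all windows, and 57.7% and 58.8% of Hoxb, which then ranked above Hoxa and Hoxd. Counting peaks within 1 kb as shared put Cbx7 on 85.0% and Suz12 on 100% of the Ring1B peaks. Lists of equal length, keeping the widest 2754 peaks of each, put Cbx7 on 92.4% of the Ring1B peaks left. The Cbx7 list stayed whole, but 66 of the 120 Ring1B peaks of the clusters remained, all at least 1953 bp wide. Wide Ring1B peaks carried Cbx7 more often without this limit too (96.1% of those of the widest quintile in the clusters). The equal lists left 8 RYBP peaks in the clusters, 6 of them in Hoxa and 0 in Hoxd. RYBP length as a percentage of Cbx7 length then fell from 11.7% to 6.17% over all clusters, from 23.7% to 15.02% in Hoxa, from 7.51% to 2.92% in Hoxb, from 5.02% to 3.37% in Hoxc and from 6.003% to 0% in Hoxd. Leaving out Hoxa, also chosen after seeing the data, lowered the share of Ring1B peaks with RYBP to 8.79%. With the other windows shifted by 50% of their length, those with as much Suz12 numbered 0 for Hoxa, 0 for Hoxb and 2 for Hoxc. Those with as much Cbx7 numbered 0 for Hoxa, 1 for Hoxb, 1 for Hoxc and 1 for Hoxd, and 1 had as much Ring1B as Hoxd. Of 97 recomputed values of the main results, 68 stayed within the interval of the reported value, or within 1.5 times of a count, and 29 did not. For covered shares and for RYBP against Cbx7 length, these intervals counted each kb of sequence as a separate trial. For the profiles they counted each bin. Neighbouring kb and bins are not independent. Some settings could not move a value, such as keeping only windows with a Ring1B peak for the Ring1B ranks. The tally is therefore only a rough guide. Without read counts, the depth behind each peak is unknown.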
